A study of Homo sapiens with 8 samples.

Results

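This report concerns 10 genes whose proteins sit on the surface of tumor cells and are read by T cells, NK cells or macrophages. They are CD274 (PD-L1), PDCD1LG2 (PD-L2), CD276 (B7-H3), CD47, the NKG2D ligands MICA, MICB, ULBP1, ULBP2 and ULBP3, and NT5E (CD73). They were taken by symbol from the 23228 genes listed in the count tables, and all 10 were listed. Of these, 9 passed the filter on low counts and were tested among 13694 genes, and ULBP1 did not pass it.

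RNA-seq was carried out on BT-549, an established human triple negative breast cancer (TNBC) cell line. Cells received DMSO as vehicle, the LIFR inhibitor EC359 at 100 nM, the histone deacetylase inhibitor (HDACi) vorinostat at 10 µM, or EC359+vorinostat at those doses, each for 24 h. There were 2 libraries per group and 8 in all, and the sources used here do not say that they came from separate cultures, so the p-values measure only the spread between these libraries. The design asks what each drug does to the transcriptome and what EC359 adds to the HDACi.

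The 10 genes act in opposite ways on immune cells. PD-L1 and PD-L2 bind PD-1 and restrain T cells, B7-H3 is a related member of the B7 family, CD47 binds SIRPA on macrophages as a "do not eat me" signal, and CD73 makes adenosine, which restrains T and NK cells. MICA, MICB and the ULBP proteins are instead stress-induced ligands that activate NK cells through the receptor NKG2D.

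The libraries held 19069450 to 24759041 reads counted on genes, and all levels below are CPM, the counts of a gene scaled to library size after TMM normalization, unless another scale is named. In bulk RNA, fewer cells of a type and less RNA per cell cannot be told apart. Of the 5 mesenchymal markers, VIM had 2056 to 9442 CPM, FN1 1879 to 4588, ZEB1 43.2 to 208, TWIST1 13.5 to 68.7 and CDH2 22.7 to 39.5, and they did not move together. VIM was highest in the combination and TWIST1 lowest there, both called against vehicle. Of the markers a triple negative mesenchymal line should lack, PGR had at most 0.0511 CPM, ESR1 1.02, CDH1 2.21 and EPCAM 4.27, while ERBB2 had 96.1 and 102 CPM in vehicle and 12.0 to 15.8 CPM in the 4 libraries with vorinostat. The 10 immune cell markers summed to between 0.710 and 2.48 CPM in every library, and NKG7 and KLRD1 were at 0 in all 8. The 3 endothelial markers summed to at most 1.23 CPM.

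EC359 and vorinostat each changed some of the 10 genes, and PDCD1LG2 passed the criteria used under both, in opposite directions. EC359 raised CD274, PDCD1LG2 and NT5E and none of the NKG2D ligands by the criteria used, whereas vorinostat raised MICA, MICB, ULBP2 and ULBP3 and lowered PDCD1LG2. Called here means an adjusted p (edgeR's quasi-likelihood F test, Benjamini-Hochberg over all tested genes) below 0.01 together with a log2 fold change beyond 1 in either direction. NT5E also moved in opposite directions, by 1.69 under EC359 and by -0.90 under vorinostat, where it passed the p threshold but not the fold threshold. In EC359 against vehicle 3 of the 9 genes were called higher, where 1.94% of all tested genes were, and 0 were called lower, where 1.72% were. In vorinostat against vehicle 4 of 9 were called higher (16.8% of all tested genes) and 1 lower (13.3%). In EC359+vorinostat against vehicle 4 were higher (19.5%) and 1 lower (15.3%). The 10 genes, and the lists used further below, were chosen with earlier results of these data known. Such shares therefore describe them and test nothing.

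When EC359 was added to vorinostat, CD274, PDCD1LG2 and NT5E were again the 3 genes called higher (3.37% of all tested genes) and 0 were called lower (0.876%). When vorinostat was added to EC359, CD274, MICA, MICB and ULBP2 were called higher (19.8%), and PDCD1LG2 and NT5E lower (13.9%). The comparisons with vehicle share the vehicle libraries, so their counts are not independent of each other. The median log2 fold change of the 9 genes was 0.87 in EC359 against vehicle, 0.44 in vorinostat against vehicle and 1.47 in EC359+vorinostat against vehicle, and that of all tested genes was -0.02, 0.03 and 0.07.

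**Figure D1:**
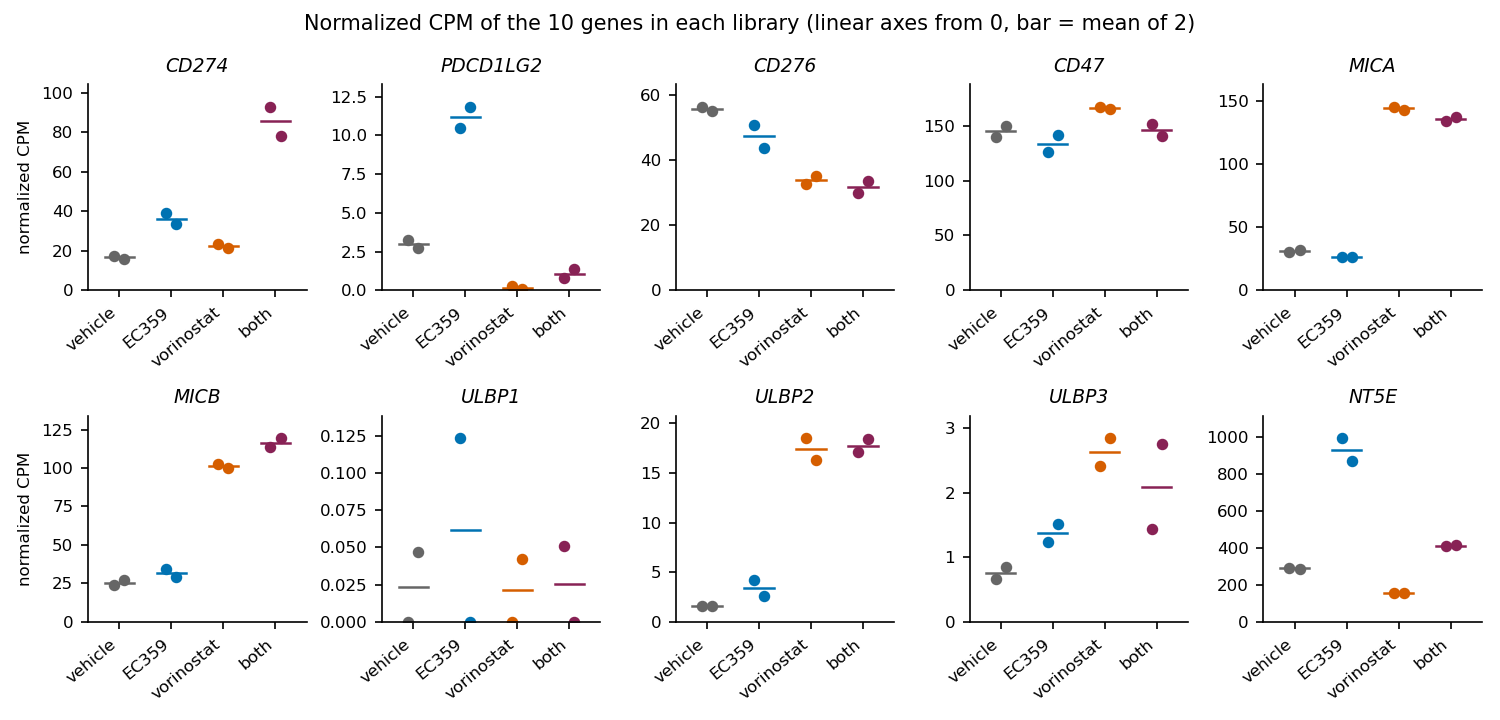
Normalized CPM (linear axes from 0) of each of the 10 genes in the 8 libraries, by group, where points are single libraries, horizontal bars are means of 2 and "both" is EC359+vorinostat. CD274 is highest under both drugs, and PDCD1LG2 and NT5E are highest under EC359. The NKG2D ligands other than ULBP1 have their highest means in the groups with vorinostat, though single libraries of ULBP3 overlap those of EC359. ULBP1 has at most 3 counts in any library.

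CD274, which encodes PD-L1, lies at chr9:5450503-5470566 on the plus strand of GRCh37. It had 17.3 and 15.9 CPM in the vehicle libraries, 39.0 and 33.4 under EC359, 23.5 and 21.5 under vorinostat, and 93.0 and 77.9 under EC359+vorinostat. No groups overlapped, and the order was vehicle, vorinostat, EC359 and the combination. EC359 raised CD274 2.18-fold, or 1.13 on the log2 scale (standard error 0.14, adjusted p = 6.7e-04). Vorinostat alone moved it by 0.44 (standard error 0.14, 95% interval 0.12 to 0.75, adjusted p = 0.020), which did not meet the criteria. The combination raised it 5.15-fold against vehicle (log2 fold change 2.36, adjusted p = 8.5e-07), 3.81-fold against vorinostat (1.93, adjusted p = 2.5e-05) and 2.36-fold against EC359 (1.24, adjusted p = 3.4e-05). The call in EC359 against vehicle was lost without vehicle replicate 2 (adjusted p = 0.014), and it was also lost when only the 4 libraries of those groups were fitted (adjusted p = 0.014).

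On the log2 scale, the combined change of CD274 exceeded both single-drug changes added together by 0.80 (standard error 0.19, 95% interval 0.37 to 1.23). This interaction had an unadjusted p of 0.0022 and an adjusted p of 0.040 in edgeR's quasi-likelihood test, and it did not pass the threshold of 0.01. Without EC359 replicate 1 it was 0.92, and with each of the other libraries left out it lay between 0.61 and 0.87. The EC359 libraries differed most from each other (SD of the log2 difference over genes 0.563, against 0.312 to 0.448 in the other groups).

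The bases upstream of the CD274 start are shown because they hold the sequence motifs for which regulation of PD-L1 is best known, those of interferon and STAT factors. The stretch runs from 250 to 40 bases before the RefSeq start (chr9:5450292-5450502, plus strand, GRCh37), where the first GENCODE exon begins. Capitals mark motif matches, in order a pair of overlapping interferon response elements (TTTC, any 2 bases, TTTC), a STAT motif (TTCNNNGAA) and a GC box (GGGCGG).
CD274: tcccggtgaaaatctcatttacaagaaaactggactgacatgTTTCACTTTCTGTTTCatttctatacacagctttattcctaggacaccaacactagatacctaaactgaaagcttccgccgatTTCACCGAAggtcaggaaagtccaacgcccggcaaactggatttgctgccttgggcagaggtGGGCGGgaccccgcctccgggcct
Searched on both strands, the interferon element was found in 3.02% of 35116 RefSeq promoters over the same 250 bases, the STAT motif in 6.57% and the GC box in 42.6%. Of the 8 genes with a sequence in the promoter table, CD274 alone held the interferon element and the STAT motif. A match describes the letters only.

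PDCD1LG2, the gene of the second PD-1 ligand, lies 39965 bases beyond CD274 on the same strand, at chr9:5510531-5571282. It had 3.26 and 2.76 CPM in vehicle (69 and 59 counts), 10.5 and 11.9 under EC359 (254 and 234 counts), 0.257 and 0.0850 under vorinostat (5 and 2 counts), and 0.768 and 1.38 under EC359+vorinostat (15 and 27 counts). The groups did not overlap, and both vorinostat groups were below vehicle. EC359 raised it 3.71-fold (log2 fold change 1.89, standard error 0.28, adjusted p = 0.0020). Under vorinostat its log2 fold change was -4.15 (standard error 0.46, 95% interval -5.19 to -3.11, adjusted p = 5.0e-05), a fall whose size is imprecise with 5 and 2 counts. Over the libraries left out in turn and the other settings it ranged from -5.06 (without vorinostat replicate 1) to -3.53 (without vorinostat replicate 2) and was called throughout.

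The combination left PDCD1LG2 below vehicle (log2 fold change -1.48, standard error 0.34, adjusted p = 0.0036) and below EC359 (-3.37, adjusted p = 1.6e-05), but above vorinostat alone (2.67, standard error 0.54, adjusted p = 0.0068). The interaction was 0.78 (standard error 0.63, 95% interval -0.64 to 2.20). Without vorinostat replicate 1 the rise over vorinostat was 3.53 and the interaction 1.62, and without vorinostat replicate 2 they were 2.00 and 0.09. Several of these calls were lost when 1 library was left out, though the rise under EC359 kept its size (1.78 to 2.02 over all alternatives). The rise under EC359 was not called without vehicle replicate 1 (adjusted p = 0.023) or 2 (0.036). The fall in the combination was not called without vehicle replicate 1 (adjusted p = 0.026) or 2 (0.012), or without EC359+vorinostat replicate 1 (0.026). The rise over vorinostat was not called without any one vehicle, vorinostat or EC359+vorinostat library (adjusted p = 0.014 to 0.076), nor in the fit of 4 libraries (0.010, above the threshold) or with the replicate block (0.011).

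The neighbouring PD-1 ligand genes thus took different courses under vorinostat. Per kilobase of exon (RPKM), the level of CD274 was 3.15 and 3.41 times that of PDCD1LG2 in the vehicle libraries, and 2.21 and 1.66 times under EC359. The ratio was 54 and 149 under vorinostat and 71.8 and 33.4 under EC359+vorinostat. The ratios with vorinostat rest on the few PDCD1LG2 counts given above.

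CD276 and CD47, which bind other partners than PD-1, were called in none of the comparisons. CD276 (chr15:73976307-74006855, plus strand) had 56.5 and 55.1 CPM in vehicle, 51.0 and 43.9 under EC359, 32.8 and 35.1 under vorinostat, and 30.0 and 33.5 under the combination. Vehicle lay above EC359 and EC359 above both vorinostat groups, which overlapped. Its log2 fold change was -0.72 under vorinostat (standard error 0.12, adjusted p = 5.2e-04) and -0.82 under the combination (standard error 0.12, adjusted p = 2.1e-04), past the p threshold but short of the fold threshold. Under EC359 it was -0.23 (95% interval -0.49 to 0.02, adjusted p = 0.20).

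CD47 (chr3:107761938-107810709, minus strand) had 140 and 150 CPM in vehicle, 126 and 141 under EC359, 168 and 166 under vorinostat, and 152 and 141 under the combination. Vehicle overlapped EC359 and the combination, and only vorinostat stood above all other libraries. No comparison passed the p threshold. The log2 fold change was -0.12 under EC359 (95% interval -0.33 to 0.10), 0.20 under vorinostat (-0.02 to 0.42) and 0.01 under the combination (-0.20 to 0.23), so that changes of the size set by the fold threshold lay outside all 3 intervals. The sign of the value for the combination depended on the scaling.

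**Figure D2:**
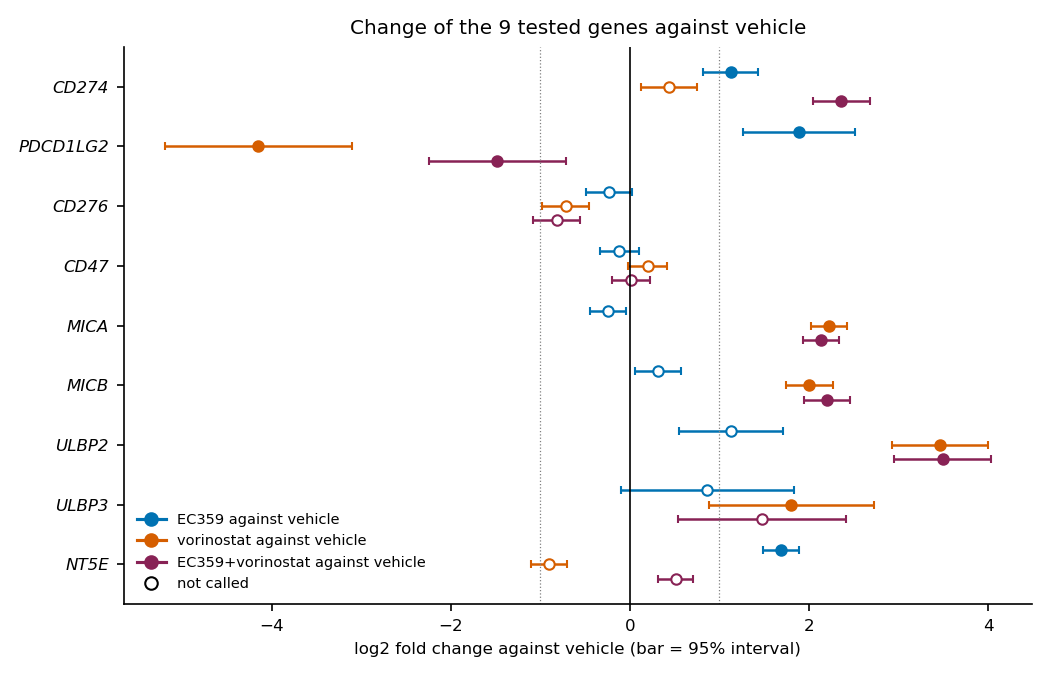
Log2 fold change against vehicle of the 9 tested genes (x axis, bars are 95% intervals) under EC359, vorinostat and EC359+vorinostat, where filled points are called, open points are not and dotted lines mark the fold threshold. MICA, MICB and ULBP2 lie at 2.00 to 3.49 in both groups with vorinostat, PDCD1LG2 lies at 1.89 under EC359 and at -4.15 under vorinostat, and CD47 stays within 0.20 of 0.

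MICA, MICB and ULBP2 rose with vorinostat whether or not EC359 was present. ULBP3 was called without EC359 and not with it (0.61 on the log2 scale, 95% interval -0.27 to 1.48, adjusted p = 0.19), while its interaction did not pass the test (adjusted p = 0.25), and ULBP1 was not tested. MICA and MICB lie 79566 bases apart on chromosome 6 (chr6:31367561-31383092 and chr6:31462658-31478901, both on the plus strand of GRCh37). MICA had 30.3 and 31.7 CPM in vehicle, 26.1 and 26.1 under EC359, 146 and 143 under vorinostat, and 135 and 138 under the combination. The groups did not overlap, and all 4 libraries with vorinostat lay far above the rest.

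Vorinostat raised MICA 4.67-fold (log2 fold change 2.22, standard error 0.09, adjusted p = 2.5e-07) and the combination raised it 4.40-fold (2.14, standard error 0.09, adjusted p = 1.6e-07). Adding EC359 to vorinostat moved it by -0.09 (95% interval -0.28 to 0.11), and EC359 alone by -0.25 (95% interval -0.45 to -0.04, adjusted p = 0.098).

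MICB had 23.8 and 26.8 CPM in vehicle, 34.1 and 28.9 under EC359, 103 and 100 under vorinostat, and 113 and 120 under the combination. It was highest in the combination and lowest in vehicle, with no overlap between groups. Vorinostat raised it 4.01-fold (log2 fold change 2.00, standard error 0.12, adjusted p = 1.2e-06) and the combination 4.60-fold (2.20, standard error 0.12, adjusted p = 4.9e-07). EC359 alone moved it by 0.32 (95% interval 0.06 to 0.58, adjusted p = 0.097), opposite in sign to MICA. Per kilobase of exon, MICA was 0.558 and 0.656 times as high as MICB in the EC359 libraries and 0.837 to 1.04 times in the other 6. MICB is joined by 55 bases of exon from MICB-DT on the opposite strand, and MICA by 62 bases of a lncRNA exon on the same strand and 94 bases of a Y RNA on the opposite strand. Whether counting used strand is not given in the sources used here. Reads that fit both MICA and MICB would have gone uncounted as multiple alignments.

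A stretch of the MICA and MICB promoters is shown because these genes are known to be induced by heat shock and their upstream bases are alike. Over 250 bases before the RefSeq start, 210 of 254 aligned positions were identical (82.7%), against 39.5% to 50.7% for MICA with the other 6 genes in the promoter table. Each stretch of 30 bases runs from a heat shock element (GAANNTTC) to a GC box (GGGCGG, here read on the opposite strand), both in capitals. MICA is given at chr6:31371237-31371266 and MICB at chr6:31465783-31465812, both on the plus strand of GRCh37. These RefSeq starts lie inside the gene bounds given above, which are those of GENCODE and begin further upstream.
MICA: GAATTTTCtcttccaagcgtggccCCGCCC
MICB: GAATTTTCtcttctgaacgtggccCCGCCC
Of the 30 positions, 27 were identical, and the heat shock element began at position -135 from the RefSeq start of MICA and -139 from that of MICB. It was found in 5.78% of all promoters, and among the 8 genes only in this pair. The AP-1 motif (TGANTCA, 6.57% of promoters), the CRE (TGACGTCA, 1.65%) and the E-box (CACGTG, 6.34%) were in none of the 8 windows.

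ULBP2, a GPI-anchored NKG2D ligand at chr6:150263150-150270371, was low without vorinostat. It had 1.56 and 1.59 CPM in vehicle (33 and 34 counts), 4.21 and 2.64 under EC359, 18.5 and 16.3 under vorinostat, and 17.1 and 18.4 under the combination. The vorinostat groups overlapped each other and lay above both other groups. Vorinostat raised it 11-fold (log2 fold change 3.46, standard error 0.24, adjusted p = 2.8e-06) and the combination 11.3-fold (3.49, standard error 0.24, adjusted p = 2.0e-06).

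EC359 alone moved ULBP2 by 1.13 (standard error 0.26, adjusted p = 0.017), short of the p threshold. This change was called by DESeq2 (adjusted p = 0.0037), without a filter on low counts (0.0065) and without EC359 replicate 2 (3.5e-04). On adding EC359 to vorinostat the change was 0.03 (95% interval -0.40 to 0.46). The interaction was -1.10 (standard error 0.32, unadjusted p = 0.0076, adjusted p = 0.080 in edgeR's quasi-likelihood test). Over the alternatives it ranged from -1.39 (without EC359 replicate 2) to -0.71.

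The upstream bases of ULBP2 are given because, of the 10 genes, its rise under vorinostat was the largest. They cover the 250 bases before the RefSeq start (chr6:150262900-150263149, plus strand, GRCh37), and capitals mark a GC box (GGGCGG) and a CCAAT box (CCAAT).
ULBP2: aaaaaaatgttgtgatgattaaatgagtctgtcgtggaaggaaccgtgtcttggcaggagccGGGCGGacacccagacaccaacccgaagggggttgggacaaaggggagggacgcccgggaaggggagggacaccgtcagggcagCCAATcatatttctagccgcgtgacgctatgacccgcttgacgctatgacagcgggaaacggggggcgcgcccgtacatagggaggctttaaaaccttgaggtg
The CCAAT box was found in 32.0% of all promoters and, among the 8 genes, in MICA, MICB and ULBP2. The GC box was in all 8 windows, ULBP1 and ULBP3 included.

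ULBP3 (chr6:150382189-150390257, minus strand) stayed low throughout, with 0.661 and 0.841 CPM in vehicle (14 and 18 counts), 1.24 and 1.52 under EC359 (30 and 30), 2.42 and 2.85 under vorinostat (47 and 67), and 1.43 and 2.76 under the combination (28 and 54). Vehicle was lowest, and the combination overlapped both single drugs. Vorinostat raised it 3.49-fold (log2 fold change 1.80, standard error 0.41, adjusted p = 0.0037). That call was lost without vehicle replicate 1 (adjusted p = 0.036) or 2 (0.020) and without vorinostat replicate 1 (0.015) or 2 (0.030). The combination moved it by 1.47 (standard error 0.42, adjusted p = 0.011), a value that fell under the threshold with the replicate block (0.0098), with either other filter on low counts (0.0086 and 0.0094), and without EC359+vorinostat replicate 1 (0.0043) or EC359 replicate 1 (0.0064) or 2 (0.0059).

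ULBP1 (chr6:150285079-150294851) was barely detected, 14708 bases from ULBP2 on the same strand. Its counts were 0 and 1 in vehicle, 3 and 0 under EC359, 0 and 1 under vorinostat, and 1 and 0 under the combination. No difference was detectable at this depth, where 3 counts correspond to 0.124 to 0.154 CPM.

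RAET1G, another ligand of the ULBP family in the same cluster, was counted from a list of related genes. It had 0 and 0 counts in vehicle, 1 and 0 under EC359, 46 and 68 under vorinostat, and 51 and 74 under the combination. Taking 3 counts per vehicle library as the floor (0.142 CPM), RAET1G was at least 16.7-fold higher in each vorinostat library and at least 18.4-fold higher in each library of the combination. It was called in both comparisons, but it passed the filter on low counts only through the groups with vorinostat. These calls therefore add no separate support. RAET1G and ULBP2 are close paralogs, so the division of reads between them is uncertain. RAET1E had at most 3 counts in any library and RAET1L had 0 in all 8.

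Summed over MICA, MICB, ULBP1, ULBP2 and ULBP3, the NKG2D ligands had 56.3 and 61.0 CPM in vehicle, 65.8 and 59.1 under EC359, 269 and 263 under vorinostat, and 267 and 278 under the combination. The sum did not separate vehicle from EC359 or vorinostat from the combination, and it separated all libraries with vorinostat from those without. MICA and MICB made up between 91.5% and 96.1% of it in every library.

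**Figure D3:**
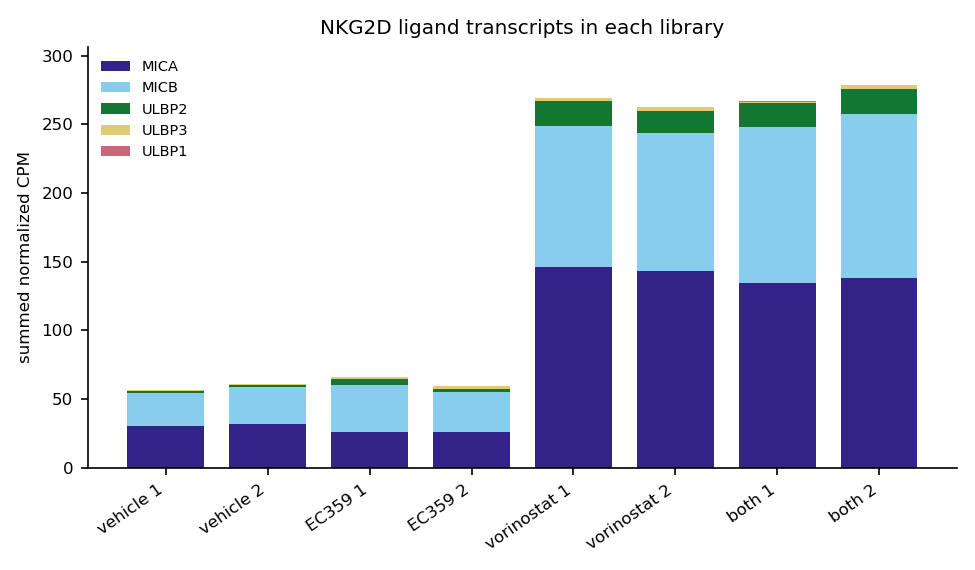
Summed normalized CPM of the 5 NKG2D ligands (stacked, y axis from 0) in each of the 8 libraries, where "both" is EC359+vorinostat. The 4 libraries without vorinostat sit between 56.3 and 65.8 CPM and the 4 with vorinostat between 263 and 278 CPM, most of it MICA and MICB.

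NT5E, the gene of the ectonucleotidase CD73 (chr6:86159302-86205509, plus strand), had the highest level of the 10 genes per kilobase of exon in the libraries without vorinostat. It had 292 and 286 CPM in vehicle, 997 and 870 under EC359, 154 and 155 under vorinostat, and 409 and 415 under the combination. The 4 groups did not overlap, in the order vorinostat, vehicle, combination and EC359. EC359 raised it 3.23-fold (log2 fold change 1.69, standard error 0.09, adjusted p = 6.1e-06) and, on top of vorinostat, 2.66-fold (1.41, standard error 0.09, adjusted p = 1.4e-05). The interaction was -0.28 (95% interval -0.56 to 0.00, adjusted p = 0.23).

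Vorinostat moved NT5E the other way. Its log2 fold change was -0.90 without EC359 (standard error 0.09, adjusted p = 2.4e-05), short of the fold threshold, and -1.18 with EC359 (standard error 0.09, adjusted p = 4.0e-06), which was called. Against vehicle the combination had 0.51 (standard error 0.09, adjusted p = 6.9e-04), past the p threshold only.

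Per kilobase of exon, the vehicle libraries gave the order NT5E (63.8 ± 1.03 RPKM, SD, n = 2), CD47 (17.6 ± 0.901), CD276 (10.2 ± 0.179), MICB (9.04 ± 0.763), MICA (8.04 ± 0.259), CD274 (4.04 ± 0.248), PDCD1LG2 (1.24 ± 0.146), ULBP2 (1.18 ± 0.0161), ULBP3 (0.241 ± 0.0409) and ULBP1 (0.00727 ± 0.0103). PDCD1LG2 and ULBP2 overlapped, and so could not be ordered. Under the combination the order was NT5E (90.9 ± 1.03 RPKM), MICB (41.6 ± 1.54), MICA (35.4 ± 0.567), CD274 (20.8 ± 2.61), CD47 (17.8 ± 0.913), ULBP2 (13.3 ± 0.711), CD276 (5.79 ± 0.446), ULBP3 (0.674 ± 0.301), PDCD1LG2 (0.441 ± 0.178) and ULBP1 (0.00797 ± 0.0113). MICA and MICB had moved above CD47, and so had CD274 (22.6 and 19.0 RPKM against 18.4 and 17.1 for CD47). ULBP3 and PDCD1LG2 overlapped there.

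The effect of each drug was next set beside its effect in the presence of the other. CD274, PDCD1LG2 and NT5E were called higher with EC359 both without vorinostat (1.13, 1.89 and 1.69 on the log2 scale) and with it (1.93, 2.67 and 1.41). MICA, MICB and ULBP2 were called higher with vorinostat both without EC359 (2.22, 2.00 and 3.46) and with it (2.38, 1.89 and 2.36). Across the 9 genes, 0 interactions passed an adjusted p of 0.01 in edgeR's quasi-likelihood test, where 1.62% of all tested genes had one above 0 and 0.482% one below 0. At an unadjusted p under 0.05 there were 2, CD274 and ULBP2, and DESeq2 called 0. A p that misses the threshold does not show that the drugs add up, and the intervals for PDCD1LG2 (-0.64 to 2.20) and ULBP3 (-2.47 to 0.08) were wide.

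**Figure D4:**
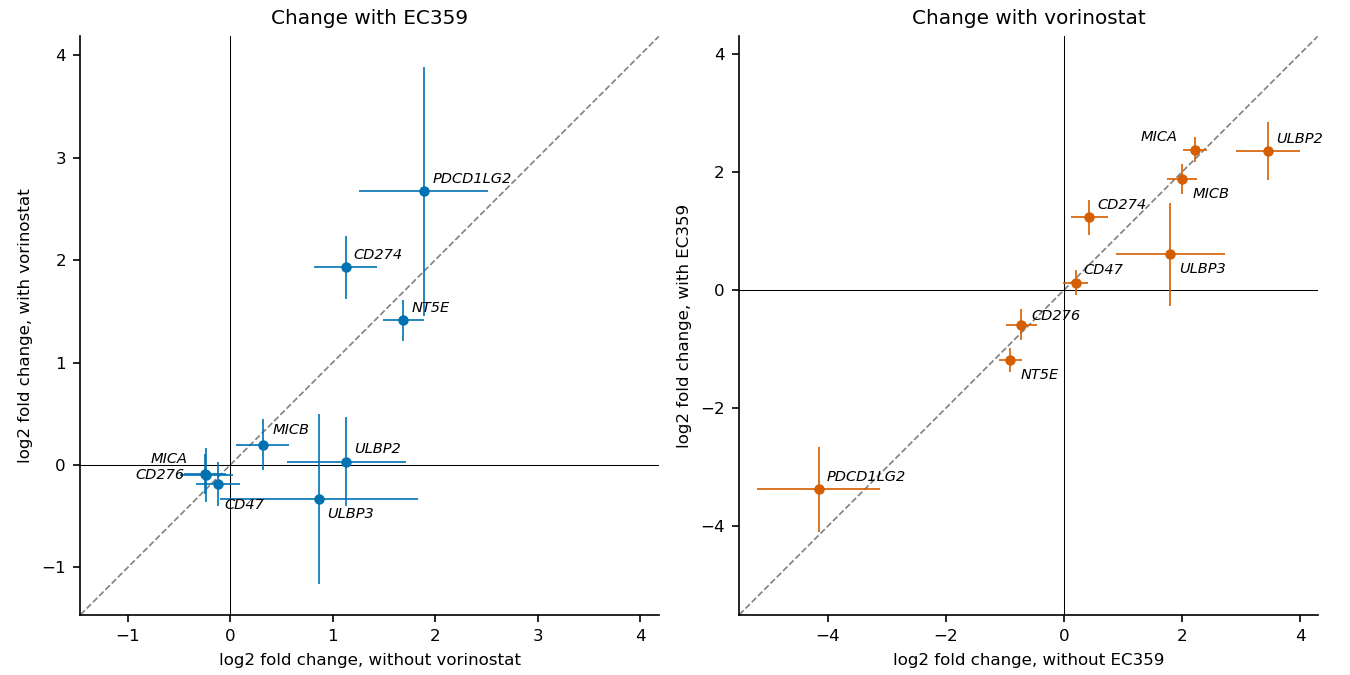
Log2 fold changes of the 9 tested genes with EC359 (left) and with vorinostat (right), in the absence (x axis) and presence (y axis) of the other drug, with 95% intervals and a dashed line of equal change. On the left CD274 lies above the line (1.13 and 1.93), NT5E lies near it (1.69 and 1.41) and MICA and MICB lie near 0, and on the right ULBP2 lies below the line (3.46 and 2.36) and PDCD1LG2 lies far below 0 on both axes.

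The pathways around these genes were counted from lists drawn from general knowledge. Of 14 regulators of PD-L1 (interferon receptors, JAK and STAT proteins, IRFs and others), all were tested. Under EC359 0 were called higher (1.94% of all tested genes) and 1, IRF1, lower (1.72%). Under vorinostat 2 were higher (16.8% of all tested genes), among them IFNGR1, and 2, IFNGR2 and IRF2, were lower (13.3%), shares near those of all genes, with a list median of -0.08. MYC, a transcription factor of growth control, had log2 fold changes of 0.95 under EC359 and 0.76 under vorinostat, both short of the fold threshold. It was called in the combination against vehicle (1.97, adjusted p = 1.2e-06) and on adding EC359 to vorinostat (1.22, adjusted p = 1.7e-04). Its interaction was 0.26 (adjusted p = 0.41). On adding EC359 to vorinostat 2 of the 14 were called higher, MYC among them (3.37% of all tested genes), and 0 lower (0.876%). An interaction above 0 was called for 2 of the 14, IRF1 among them (1.62% of all tested genes), and 1 below 0 for 0 of them (0.482%). IFNGR2, a chain of the interferon gamma receptor, fell by 1.58 on the log2 scale under vorinostat (adjusted p = 3.2e-06).

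Of 15 other inhibitory ligands of T cells and macrophages, 7 were tested. CD24, a ligand of Siglec-10, was lower under EC359 (log2 fold change -1.64, adjusted p = 1.3e-05), higher under vorinostat (1.64, adjusted p = 1.2e-06) and higher in the combination (1.30, adjusted p = 3.0e-06). The interaction of CD24 was called (1.29, adjusted p = 0.0010). Its symbol did not match the annotation used here and it has near-identical copies in the genome, so its counts are uncertain. PVRL2, a ligand of TIGIT and DNAM-1, was higher under vorinostat (1.14, adjusted p = 4.3e-05) but not called in the combination (0.36, adjusted p = 0.026). Adding EC359 to vorinostat moved PVRL2 by -0.78 (adjusted p = 0.0021), short of the fold threshold. CD200 was lower under vorinostat (-2.36, adjusted p = 9.9e-04) and in the combination (-2.06, adjusted p = 0.0019). The list median was 0.63 under vorinostat and 0.20 under EC359.

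Of 10 costimulatory and adhesion ligands, 7 were tested, and under vorinostat 3 were higher (TNFSF9, ICOSLG and CD40), where 16.8% of all tested genes were, and 1, CD58, lower, where 13.3% were. TNFSF9, the ligand of 4-1BB, had 7.84 and 7.47 CPM in vehicle, 7.88 and 12.6 under EC359, 183 and 167 under vorinostat, and 242 and 231 under the combination (log2 fold change 4.51 under vorinostat, adjusted p = 3.2e-07). CD58, the ligand of CD2, fell by 2.70 (adjusted p = 6.3e-05). Under EC359 alone 0 were called higher (1.94% of all tested genes) and 0 lower (1.72%). On top of vorinostat ICAM1, the ligand of LFA-1, rose (1.52, adjusted p = 1.2e-04). The list median was 0.60 under vorinostat and 0.07 under EC359.

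Among 9 ligands of other NK cell receptors, 8 were listed and 6 tested. HLA-E, the ligand of the inhibitory receptor NKG2A, had 155 and 167 CPM in vehicle, 144 and 161 under EC359, 311 and 300.3 under vorinostat, and 519 and 521 under the combination. It was called in the combination (log2 fold change 1.69, adjusted p = 5.7e-07), with an interaction of 0.85 (adjusted p = 0.0059). CADM1, a ligand of CRTAM, fell by 1.14 under EC359 (adjusted p = 4.1e-04). The list median was 0.02 under EC359 and 0.04 under vorinostat.

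Of 8 genes of NKG2D ligand shedding, 6 were tested. MMP14, a membrane-bound metalloprotease, had 443 and 413 CPM in vehicle, 2318 and 2057 under EC359, 62.4 and 59.8 under vorinostat, and 89.1 and 102 under the combination. It thus rose under EC359 (log2 fold change 2.35, adjusted p = 2.1e-06), fell under vorinostat (-2.81, adjusted p = 2.1e-07) and had an interaction below 0 (-1.71, adjusted p = 3.0e-04). ADAM9 fell under vorinostat (-1.17, adjusted p = 1.7e-05). The list median was 0.29 under EC359 and -0.30 under vorinostat.

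All 12 stress and DNA damage regulators linked to NKG2D ligands were tested. EC359 alone called 0 of them in either direction, where 1.94% of all tested genes were called higher and 1.72% lower. Vorinostat raised 1, HSPA1A, which encodes the heat shock protein HSP70 (log2 fold change 2.19, adjusted p = 5.8e-07), and lowered 3, among them ATM and CHEK1, with a list median of -0.26. Of all tested genes 16.8% were called higher and 13.3% lower under vorinostat. DDIT3, the stress factor CHOP, was called on adding EC359 to vorinostat (2.14, adjusted p = 2.1e-06), with an interaction of 1.66 (adjusted p = 3.1e-04).

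In the extracellular adenosine pathway 9 of 15 genes were tested. PNP, which degrades inosine, rose under EC359 (log2 fold change 1.34, adjusted p = 6.1e-05), vorinostat (1.87, adjusted p = 1.2e-06) and the combination (2.64, adjusted p = 1.5e-07). ADORA2A, an adenosine receptor, fell under each (-1.71, -1.52 and -1.89, adjusted p = 6.5e-05, 1.4e-05 and 3.3e-06). The interaction of ADORA2A was called (1.34, adjusted p = 0.0054). SLC29A2, a nucleoside transporter, rose under vorinostat (1.44, adjusted p = 5.7e-04). The list median was -0.38 under EC359 and 0.28 under vorinostat.

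In the CD47 pathway, all 3 listed genes were tested. SIRPA, the receptor of CD47, fell under vorinostat (log2 fold change -1.96, adjusted p = 4.0e-06), as did THBS1, a secreted CD47 ligand (-1.03, adjusted p = 4.8e-06). THBS1 was not called in the combination against vehicle (-0.66) and had an interaction of 1.07 (adjusted p = 8.3e-04). QPCTL, the enzyme that modifies CD47 for SIRPA binding, fell on adding EC359 to vorinostat (-1.06, adjusted p = 5.1e-04). Of 16 immune receptors that match the ligands, 2 passed the filter, and LAG3 was called under vorinostat with 4.63 and 5.31 CPM, against 0.566 and 0.234 in vehicle.

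Genes beside the members were also read. HLA-B, which presents peptides to T cells and lies 32717 bases from MICA, was called under vorinostat (log2 fold change 3.47, adjusted p = 4.3e-07). Beyond MICB, NFKBIL1 had -0.31 (adjusted p = 0.089) and ATP6V1G2 had 0.98 (adjusted p = 0.0019), and neither was called under vorinostat alone. ATP6V1G2 was called on adding vorinostat to EC359 (1.34, adjusted p = 4.0e-04). NPTN, 49832 bases from CD276, was called higher under vorinostat (1.02), while SNX14 beside NT5E (-0.68) and IFT57 beside CD47 (0.69) were not called. LRP11, at the edge of the ULBP cluster, had 0.27 and was not called. RAET1K, inside that cluster, had -0.02 under vorinostat and was called only in the combination against vehicle (1.49, adjusted p = 0.0079).

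For each tested gene, the genes with the most similar log2 CPM over the 8 libraries were taken from 9969 well-expressed genes. These correlations are descriptions, since the points fall into 4 groups that share their drugs, and with so many genes searched high values are to be found for any gene. CD274 was nearest to CD83 (r = 0.994) and MTAP (0.992), and NT5E to NAV3 (0.998) and DUSP4 (0.994). PDCD1LG2 was nearest to ZNF239 (0.994) and SLC35C2 (0.992), CD276 to ZNF362 (0.996) and RTN4RL1 (0.995), and CD47 to EXT2 (0.994) and TCEB2 (0.993). MICA was nearest to GRN (0.999) and SLC27A1 (0.999), MICB to CD9 (0.999) and CCNYL1 (0.999), ULBP2 to AP1S3 (0.997) and GOLGA7 (0.996), and ULBP3 to MIF4GD (0.973) and ZNF324B (0.956). Among the 9 genes themselves, the highest values were between MICB and ULBP2 (0.987) and between MICA and MICB (0.975), PDCD1LG2 and NT5E had 0.880, and CD274 and PDCD1LG2 had 0.0276.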

How the data were processed

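Libraries of BT-549 cells were sequenced as single-end reads. Per the submitters' processing notes and the methods of the study, the authors aligned them to hg19 with TopHat2 2.0.8b and deposited raw read counts per RefSeq gene symbol from HTSeq, without normalization. The HTSeq version and strand setting are not given in the sources used here. Its summary lines were left out, and genes took 85.1% to 88.1% of the unique alignments.

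Genes were filtered by filterByExpr of edgeR 4.0.16 in R 4.3.3 with default settings and scaled by TMM (factors 0.955 to 1.03). All 8 libraries entered a single quasi-likelihood fit of the 4 group means. Each gene had its own spread, estimated across the 4 groups, and the common dispersion over genes was 0.0135. The p-values were adjusted by Benjamini-Hochberg over 13694 genes. The standard error is the size of the log2 fold change over the square root of F, and intervals are at 95%. An interaction was called at an adjusted p below 0.01 alone. The procedure was tested on simulated data. RPKM used the union of GENCODE exons on GRCh37, the build of hg19. Promoter sequences came from RefSeq (GRCh38.p14 table), for 8 of the 10 genes (not PDCD1LG2 and CD276), and were placed on GRCh37 by exact match. The alternatives comprised RLE and total-count scaling, DESeq2 1.42.0, other filters and thresholds, fits of 4 libraries, the replicate number as a block and leaving out each library. With a library left out, its group holds 1 library, assumed to vary like the others.

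The 10 genes and the lists, which came from general knowledge, were chosen with earlier results of these data known. From each list up to 3 called genes were to be named, those of an average log2 CPM of at least 0 with the largest change against vehicle, or all where 5 or fewer were called. The genes named only beside a count (IRF1, IRF2, IFNGR1, CD40, ATM, CHEK1), and the neighbouring genes, lie outside this rule and were chosen after their values were seen. The nearest patterns were searched among genes of an average log2 CPM of at least 3. The counting error of a low count is not reduced by normalization, and 3 counts were taken as the floor of a library. Figures were drawn with Python 3.11.15. Some genes counted in the pathway lists are not reported by name here.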

Additional observations from a re-analysis of the deposited data

How the results depend on the processing

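Of 801 log2 fold changes of the 9 genes recomputed under the alternatives, 752 kept their direction and side of the thresholds, 19 lost a call, 11 gained one and 19 changed sign, all of them differences that were not called as reported. CD47 in the combination against vehicle, 0.01, became -0.0019 with DESeq2, -0.069 with total counts, -0.028 without a filter and -0.020 with 4 libraries. ULBP2 in the combination against vorinostat, 0.03, became -0.0051 with DESeq2, -0.0043 with RLE, -0.057 with total counts and -0.0071 without a filter. With each library left out, these ranged from -0.088 to 0.056 and from -0.098 to 0.083. ULBP3 then ranged from -0.92 to 0.026 against vorinostat and from -0.0071 to 0.94 against EC359, and the interaction from -0.0046 to 0.25 for CD276, from -0.18 to 0.0068 for CD47 and from -0.24 to 0.0060 for MICB. In fits with 2 libraries per group, the number of genes called in EC359 against vehicle ranged from 2 to 4, and 0 interactions passed an adjusted p of 0.01. The lowest number came with 4 libraries, where 146 of 12545 genes were called higher and 87 lower, against 266 and 236 of 13694. Leaving out vehicle replicate 2 lowered the calls in EC359 against vehicle, for these genes and over all genes. Leaving out either EC359 library raised the interactions called, for these genes and over all genes. At an adjusted p under 0.05, 1 interaction was called (CD274). The other counts stayed within 1.5 times their value. Same-numbered libraries did not deviate together (correlations of deviations from group means between -0.173 and 0.231). With replicate number added as a block, 3, 5, 6, 2 and 6 genes were called in EC359, vorinostat and the combination against vehicle, and the combination against vorinostat and against EC359, with 0 interactions. Over all 13694 tested genes the block called 255 higher and 216 lower under EC359, 2214 and 1799 under vorinostat, and 2586 and 2072 under the combination. It called 442 and 115 in the combination against vorinostat, and 2647 and 1880 against EC359. For interactions the block called 151 above 0 and 38 below, where the fit without it called 222 and 66. The replicate block gained ULBP3 in the combination and lost PDCD1LG2 against vorinostat, and it changed no other call. Total-count scaling shifted the median of all genes by -0.0881 to 0.00681. Low counts limit PDCD1LG2 with vorinostat, ULBP1 and ULBP3. The cause of these changes was not tested.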
